A study of Mus musculus with 30 samples.

Results

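The genes described here encode the proteins of the cytosolic ribosome and a few relatives that share their names. They were taken as the genes whose symbol is Rpl or Rps followed by a digit, Rplp0 to Rplp2 or Rpsa, on array rows naming exactly 1 gene, without pseudogenes and without the Rps6k kinases. The rule found 63 genes of the 19938 measured, on 219 of 21789 rows. Of these, 30 encode proteins of the large subunit, 21 of the small subunit and 3 of the stalk of the large subunit, together called the 54 core genes here. The other 9 are paralogs, retroposed copies or, for Rps19bp1, a binding partner of Rps19. A further 16 subunit genes, among them Rpl3, Rpl11, Rps24 and Rps27, were named only on rows that name several genes, and they were not analysed here.

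The cells were CD8+ T cells from the Pmel-1 strain, in which a T cell receptor is supplied by a transgene, measured on 30 Affymetrix gene arrays in 10 groups of 3. TMem cells were memory cells differentiated in vitro (Ly5.2 Pmel-1 Tg) and TN cells were naive or derived from naive cells (Ly5.1 Pmel-1 Tg). Both came from spleens of C57BL/6 mice labelled female and 6 to 12 weeks old, and all samples were sorted by flow cytometry. TMem alone and TN alone were sampled unstimulated (0 h) and after 18 h and 96 h with antibodies to CD3 and CD28 plus IL-2. TMem mix and TN mix were stimulated in each other's presence and sampled at 18 h and 96 h. All cells carried 1 receptor specificity, and the memory cells were made in culture, which limits both as models of an endogenous response.

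The ribosome reads mRNA on its small subunit and forms peptide bonds on its large subunit, and each subunit holds ribosomal RNA and many proteins that are needed in matched amounts. Naive T cells are small and quiescent, and activated T cells grow and divide, so ribosome production is a known early part of their response. In mammals most ribosomal protein mRNAs begin with a C and a run of pyrimidines (a terminal oligopyrimidine, or TOP, start). Through this start mTOR and the RNA-binding protein Larp1 control how far the existing mRNA is translated, so that protein output can change with little change of mRNA. The arrays measured mRNA level and not translation.

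To show what such a start looks like at the genes on which the results turn, 30 bases around the start of transcription are given (RefSeq, GRCm38.p6), 15 before the start and 15 from it on. Capitals mark the unbroken pyrimidine run that includes the start, where there is one. The first group begins with C and at least 4 further pyrimidines:
Rps21 (chr2:180257364-180257393, plus strand): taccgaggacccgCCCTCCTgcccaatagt
Rpl14 (chr9:120571502-120571531, plus strand): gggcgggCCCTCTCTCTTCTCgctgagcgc
Rps10 (chr17:27635230-27635259, minus strand): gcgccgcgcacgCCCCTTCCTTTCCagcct
Rplp2 (chr7:141447636-141447665, plus strand): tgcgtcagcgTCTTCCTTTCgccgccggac
Rpl28 (chr7:4792950-4792979, plus strand): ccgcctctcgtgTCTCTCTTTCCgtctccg
The second group does not, at the first start that RefSeq lists:
Rps3a1 (chr3:86142654-86142683, minus strand): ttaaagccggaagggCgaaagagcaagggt
Rpl12 (chr2:32961697-32961726, plus strand): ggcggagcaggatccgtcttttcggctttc
Rpl7l1 (chr17:46782642-46782671, minus strand): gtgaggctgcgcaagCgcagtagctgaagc
Rps27l (chr9:66946071-66946100, plus strand): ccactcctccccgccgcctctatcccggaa
A listed start was found for 51 of the 63 genes. A C followed by at least 4 pyrimidines stood at the first start of 9 of 43 core genes (20.9%) and of 2.5% of all 27018 genes with a start. Within 10 bases of the start such a run was found for 48.8% of the core genes and 30.3% of all genes. Listed starts can lie some bases from the true ones. A pyrimidine run lies just downstream of the listed Rpl12 start, but with such runs near 30.3% of all starts it does not show that this start is misplaced. No match says only that these letters are not at the listed start.

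Before the results, 3 features of the arrays bear on how they are read. First, sex-linked genes went against the label female. On all 15 TMem arrays Xist, the RNA that silences an X chromosome, was low (4.99 to 6.02) and Eif2s3y on the Y chromosome was high (8.82 to 9.51). TN alone had high Xist and low Eif2s3y at 0 h and 96 h (4.0 to 4.58), whereas TN mix at both times and TN alone at 18 h had high Xist together with Eif2s3y at 7.34 to 8.5. Memory state and the source of these sex-linked signals cannot be told apart in TMem against TN, nor can time or mixing in TN alone at 18 h against 0 h or 96 h and in TN mix against TN alone at 96 h. Second, replicate 1 of TN alone 0 h stood apart from the other two arrays of its group (correlation down to 0.978, against 0.984 or more within every other group). The last is cell type: the CD8 T cell list (Cd3d, Cd3e, Cd3g, Cd8a, Cd8b1 and Thy1) averaged 11.2 to 12.4 on all arrays, while lists of other cell types were lower. At 96 h against 0 h in TN alone, 1 of 4 B cell, 2 of 5 myeloid, 2 of 3 NK, 1 of 2 CD4 T cell and 2 of 3 mast and basophil markers were higher. Values or counts for these lists are given beside the results for those arrays.

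Array values of ribosomal protein genes were highest in unstimulated naive cells. The median of the 54 core genes, as a log2 array value, was 12.19 ± 0.093 in TMem alone at 0 h, 12.28 ± 0.073 at 18 h and 12.08 ± 0.020 at 96 h (SD, n = 3 each). In TN alone it was 12.72 ± 0.11 at 0 h, 12.42 ± 0.021 at 18 h and 12.27 ± 0.0095 at 96 h. TMem mix had 12.30 ± 0.041 at 18 h and 12.04 ± 0.10 at 96 h, and TN mix had 12.46 ± 0.019 and 12.12 ± 0.14 at those times. The 3 TN alone 0 h arrays (12.85, 12.65 and 12.67) lay above all 27 others, and within both cell types the 96 h groups were lower than the 18 h groups. Gene by gene, 46 of the 54 core genes had their highest group mean in TN alone 0 h, 46 their lowest in a TMem group and 44 their lowest in a 96 h group.

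**Figure D1:**
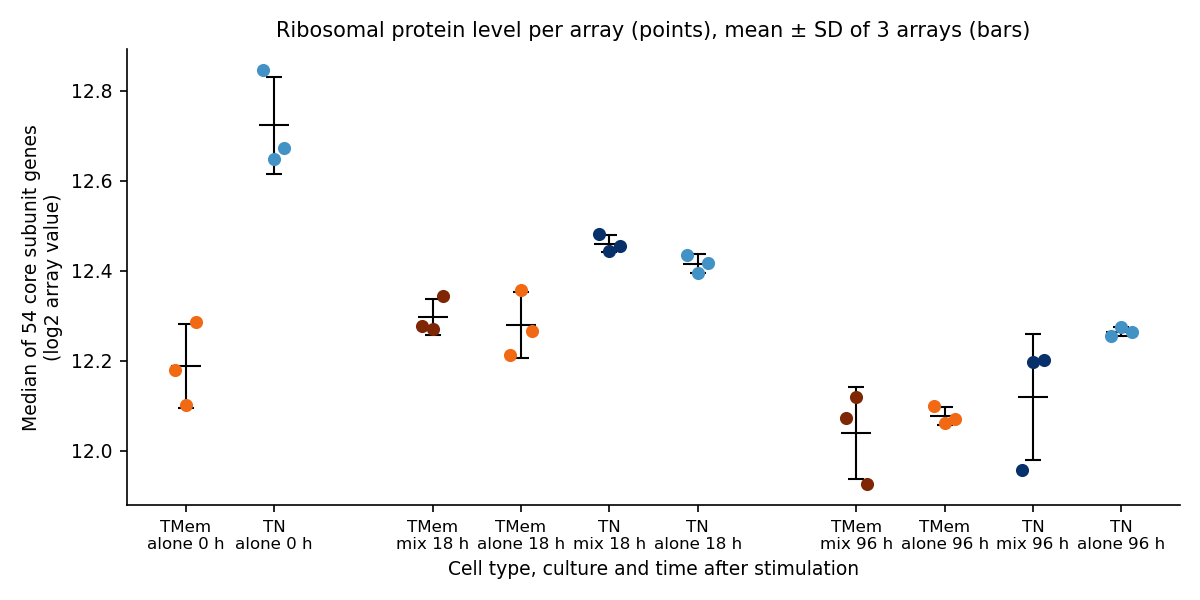
Median log2 array value of the 54 core ribosomal protein genes on each array (points), with the mean and SD of the 3 arrays of a group (bars), ordered by time and within a time as TMem mix, TMem alone, TN mix and TN alone. TN alone 0 h lies above all other groups, at 12.72, and TMem mix 96 h is lowest, at 12.04.

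Core genes differed widely in how much they moved across the 10 groups. Rpl12, a large subunit protein at the base of the stalk, had the largest SD of group means (0.59), followed by Rps3a1 (0.50) and Rps21 (0.48), both of the small subunit. Rpl28 (0.039), Rpl41, the smallest ribosomal protein (0.046), and Rplp0, the stalk's anchor (0.053), had the smallest. These 3 steady genes were bright rows: group means lay between 13.39 and 13.50 for Rpl28 and between 13.33 and 13.49 for Rplp0, near the table's highest value of 14.163. Row brightness also depends on the probes and does not order transcripts by abundance.

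**Figure D2:**
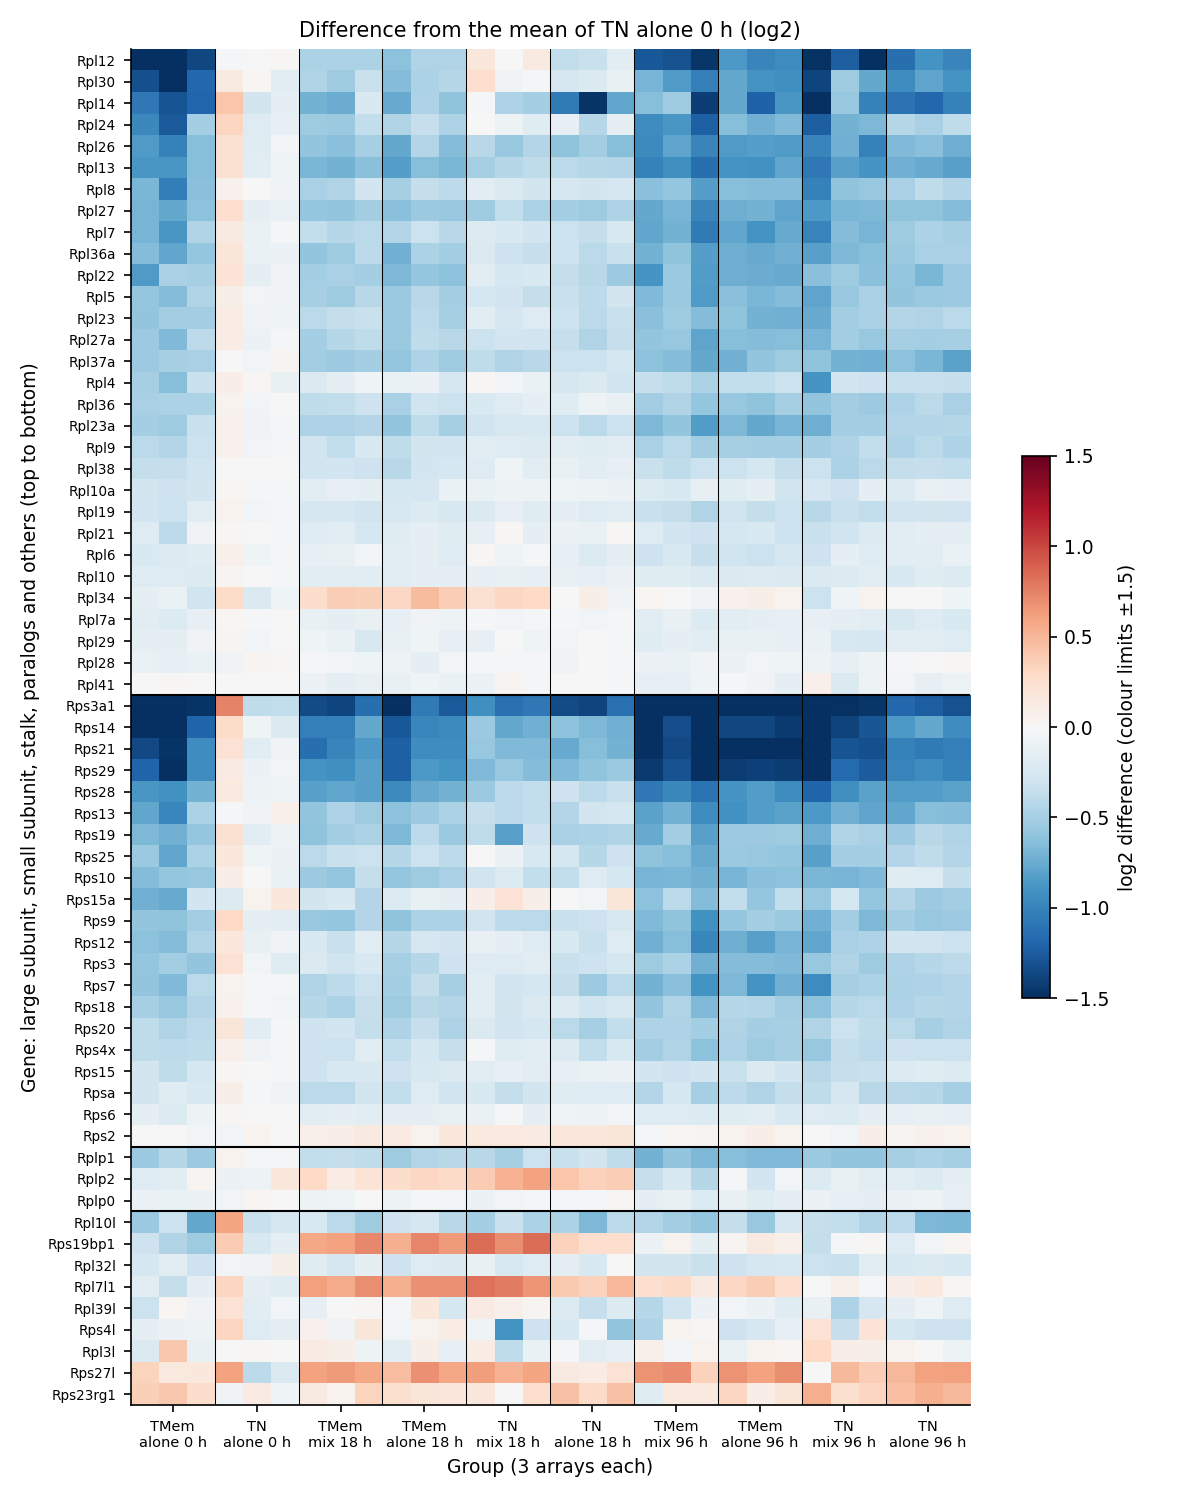
Each of the 63 genes (rows, by class and within a class by the TMem alone minus TN alone difference at 0 h) on each of the 30 arrays (columns, by group), as log2 difference from the gene's mean in TN alone 0 h; blue is lower and red higher, with the colour limited at 1.5. Most core genes are blue outside TN alone 0 h, Rplp2, Rps19bp1 and Rpl7l1 are red at 18 h, and Rps27l is red in most stimulated groups.

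Unstimulated memory cells had lower array values for most ribosomal protein genes than unstimulated naive cells, in both subunits. Of the 63 genes, 49 were lower and 1 was higher in TMem alone than in TN alone at 0 h (limma, Benjamini-Hochberg adjusted p under 0.05), where 17.5% of all genes were lower and 18.4% higher (35.9% in all). The median log2 difference, TMem minus TN, was -0.50 over the 63 genes and 0.02 over all genes. By class, 26 of 30 large subunit genes, 19 of 21 small subunit genes and 1 of 3 stalk genes were lower. In samples of many cells, less RNA per cell and fewer cells carrying the RNA cannot be told apart. Array values are relative to the RNA of each sample, and the amount of RNA per cell was not measured here.

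The largest differences were in Rps3a1, Rpl12, Rps14, Rpl30 and Rps21. Rps3a1, a small subunit protein that also takes part in initiation, read 9.35, 8.91 and 9.42 in TMem alone 0 h, against 11.64, 10.51 and 10.52 in TN alone 0 h. The groups did not overlap, and the first naive array was above the other two by more than 1 log2 unit. The fitted difference was -1.66 (SE 0.20, limma adjusted p = 1.19e-07). Rpl12 read 8.51, 8.37 and 8.73 in TMem alone 0 h, against 10.07, 10.09 and 10.10 in TN alone 0 h. Here the naive arrays lay within 0.03 of one another, and the difference of -1.55 (SE 0.092, limma adjusted p = 6.97e-14) does not rest on the first of them. Rps14, on the platform of the small subunit, had a difference of -1.45 (SE 0.12), Rpl30 of -1.34 (SE 0.14), Rps21 of -1.25 (SE 0.13) and Rps29 of -1.21 (SE 0.12). Their limma adjusted p-values lay between 1.15e-10 and 9.80e-09.

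Some core genes were not called lower in memory cells. Rps2 averaged 13.17 ± 0.027 in TMem alone 0 h and 13.18 ± 0.046 in TN alone 0 h (SD, n = 3 each), and Rpl41 averaged 13.08 ± 0.014 and 13.08 ± 0.010 in the same groups. Rplp0 (difference -0.09), Rplp2 (-0.11) and Rpl28 (-0.11) did not pass the test either. For Rplp0 and Rpl28 every TMem alone 0 h array nevertheless read below every TN alone 0 h array. Rps2, Rpl41, Rplp0 and Rpl28 had rows above a level of 13, and brighter core genes had the smaller median difference in this comparison. The X-linked members Rpl10, Rpl36a and Rps4x were lower, by -0.20, -0.67 and -0.38. The 1 gene that was higher was Rps23rg1, a retroposed copy of Rps23 (difference 0.34, limma adjusted p = 0.00671, but 0.078 when only these 2 groups entered the fit). Without replicate 1 of TN alone 0 h, 43 genes were lower and 2 higher, with a median of -0.44. CD8 T cell markers averaged 11.8 to 12.0 on the TMem alone 0 h arrays and 12.1 to 12.4 on the TN alone 0 h arrays, with 4 of 6 lower and 1 higher. Mast and basophil markers averaged 6.70 to 7.29 against 5.67 to 6.02, with 1 of 3 higher. Among them Cpa3 read 8.74 to 10.21 against 6.07 to 6.35. The part of these and of the sex-linked genes in the result was not tested.

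In stimulated naive cells most ribosomal protein genes had lower array values than before stimulation. At 18 h against 0 h in TN alone, 34 of the 63 genes were lower and 4 higher, where 16.7% of all genes were lower and 17.1% higher (33.8% in all), and the median difference was -0.25. At 96 h against 0 h, 46 were lower and 2 higher, where 17.9% and 18.6% of all genes were (36.4% in all), with a median of -0.43. At 96 h against 18 h, 17 were lower and 0 higher (limma), where 13.1% and 11.3% of all genes were (24.4% in all), and 1 gene was higher at an unadjusted p under 0.05. The 17 include genes already lower at 18 h, such as Rpl12, and genes that had risen by then, such as Rplp2. The comparisons with 0 h share the 3 TN alone 0 h arrays with each other and with the comparison of TMem and TN at 0 h, so they do not bear on one another independently. Without replicate 1 of that group, 26 genes were lower and 5 higher at 18 h (median -0.17), and 40 lower and 3 higher at 96 h (median -0.36).

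Among those that fell in TN alone, Rps3a1 and Rpl14 led at both times. Rpl14, a large subunit protein, read 9.14, 8.74 and 9.43 at 18 h, against 10.63, 9.93 and 10.06 at 0 h. It read 9.11, 9.03 and 9.19 at 96 h, so all 6 stimulated arrays lay below all 3 unstimulated ones. The differences were -1.10 at 18 h (SE 0.23, limma adjusted p = 2.46e-04) and -1.10 at 96 h (SE 0.23, limma adjusted p = 2.38e-04). Rps3a1 had differences of -1.28 and -1.24 at 18 h and 96 h. Rps21 fell in 2 steps: its arrays read 11.387, 11.004 and 11.108 at 0 h, 10.42, 10.53 and 10.46 at 18 h, and 10.16, 10.11 and 10.15 at 96 h. The second step, a difference of -0.33, did not pass the test (limma adjusted p = 0.0568). Rpl12 behaved differently in time, at 10.07, 10.09 and 10.10 at 0 h, 9.72, 9.75 and 9.92 at 18 h, and 8.96, 9.19 and 9.1 at 96 h. Most of its change therefore lay between 18 h and 96 h (difference -0.72, SE 0.092, limma adjusted p = 5.21e-07), as it did for Rpl30 (-0.68).

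The genes that rose in TN alone at 18 h against 0 h were Rpl7l1 (difference 0.41), Rps23rg1 (0.39), Rplp2 (0.38) and Rps2 (0.16). The call for Rps2, which helps form the small subunit's mRNA entry, was lost under 8 of 13 alternative settings, and that for Rpl7l1 under 1. At 96 h against 0 h the risers were Rps27l (0.57) and Rps23rg1 (0.50). In this last comparison the Y-linked genes were near background in both groups (Eif2s3y 4.13 to 4.2 at 96 h and 4.0 to 4.58 at 0 h). Markers of other cells moved with it: B cell markers (4 of 5 measured) averaged 7.12 to 7.18 in TN alone 96 h and 6.21 to 6.54 in TN alone 0 h, and mast and basophil markers 6.94 to 7.30 and 5.67 to 6.02. Of these lists 1 of 4 and 2 of 3 genes were higher at 96 h. Myeloid markers averaged 6.782 to 6.806 in TN alone 96 h and 6.177 to 6.185 in TN alone 0 h. NK markers averaged 6.145 to 6.255 and 5.247 to 5.745 in the same groups, and CD4 T cell markers 7.46 to 7.70 and 6.51 to 6.69. The part of all these lists in the result was not tested.

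In memory cells the members called at 18 h were higher. In TMem alone at 18 h against 0 h, 14 of the 63 genes were higher and 0 lower (limma; 0 lower also at an unadjusted p under 0.05), where 18.0% of all genes were higher and 17.3% lower (35.3% in all). The share of members that rose was thus close to that of all genes, while none fell. Quantile normalization gave 10 higher and 2 lower. The median difference was 0.08, against -0.09 over all genes. At 96 h against 0 h, 5 were higher and 1 lower, where 16.1% and 8.44% of all genes were (24.5% in all), and quantile normalization gave 4 higher and 17 lower. At 96 h against 18 h, 16 were lower and 0 higher (limma; 0 also at an unadjusted p under 0.05), where 9.87% and 14.6% of all genes were (24.4% in all). At 18 h against 0 h in TMem alone 6 of 6 CD8 T cell markers, 2 of 3 mast and basophil markers and 2 of 4 B cell markers were lower. The mast and basophil list averaged 5.48 to 5.58 at 18 h and 6.70 to 7.29 at 0 h, the CD8 T cell list 11.2 to 11.4 and 11.8 to 12.0, and their part in the result was not tested. The rise at 18 h depended on single arrays: 7 genes were higher without replicate 2 of TMem alone 0 h and 9 without replicate 2 of TMem alone 18 h. The fall from 18 h on gave 7 and 8 calls without replicates 2 and 3 of TMem alone 18 h, and 10 each without replicates 2 and 3 of TMem alone 96 h.

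The core genes that rose most in TMem alone at 18 h were Rpl12, Rpl30, Rpl14 and Rpl34, all of the large subunit. The median difference was nevertheless 0.08 over large subunit genes (8 of 30 higher) and 0.12 over small subunit genes (3 of 21 higher). All 12 core genes called there had a level below the core median of 12.29. Rpl12 read 9.47, 9.63 and 9.64 at 18 h, against 8.51, 8.37 and 8.73 at 0 h, and 9.23, 9.1 and 9.15 at 96 h. The rise of 1.05 at 18 h (SE 0.092, limma adjusted p = 2.80e-10) placed TMem alone 18 h just below TN alone 18 h, which read 9.72, 9.75 and 9.92. Rpl30 rose by 0.82 (SE 0.14, limma adjusted p = 2.59e-05) and Rpl34 by 0.57 (SE 0.097, limma adjusted p = 2.59e-05). Rpl14 was 0.58 higher (SE 0.23), with a limma adjusted p of 0.0471 that passed 0.05 in only 4 of 13 alternative settings. The largest falls among core genes at 96 h against 18 h were in Rps21 (-0.52), Rps12 (-0.43), Rps29 (-0.42), Rpl12 (-0.42) and Rpl7 (-0.41).

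The 18 h responses of the 2 cell types differed when the difference itself was tested. In the contrast of the TMem alone response minus the TN alone response, 38 genes were higher and 1 lower, where 14.2% and 14.7% of all genes were (28.9% in all), and 35 of the 38 were core genes. The median was 0.39 over the 63 genes and -0.06 over all genes. Rpl14 had the largest difference between responses, 1.68 (SE 0.32, limma adjusted p = 1.74e-04), with Rps3a1 at 1.66, Rpl12 at 1.34, Rps14 at 1.05 and Rpl30 at 1.01. Taken singly, 5 genes were lower in TN alone and higher in TMem alone (Rpl12, Rpl14, Rpl7, Rps12 and Rps14), 29 were lower in TN alone and not called in TMem alone, 2 were higher in both and 7 were higher in TMem alone and not called in TN alone. Without replicate 1 of TN alone 0 h, 32 genes were higher and 1 lower, with a median of 0.30. This contrast contains the TMem and TN difference at 0 h with its sign turned, and Eif2s3y read 8.09 to 8.25 at 18 h and 4.0 to 4.58 at 0 h in TN alone, but 9.05 to 9.38 and 8.82 to 9.47 in TMem alone.

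**Figure D3:**
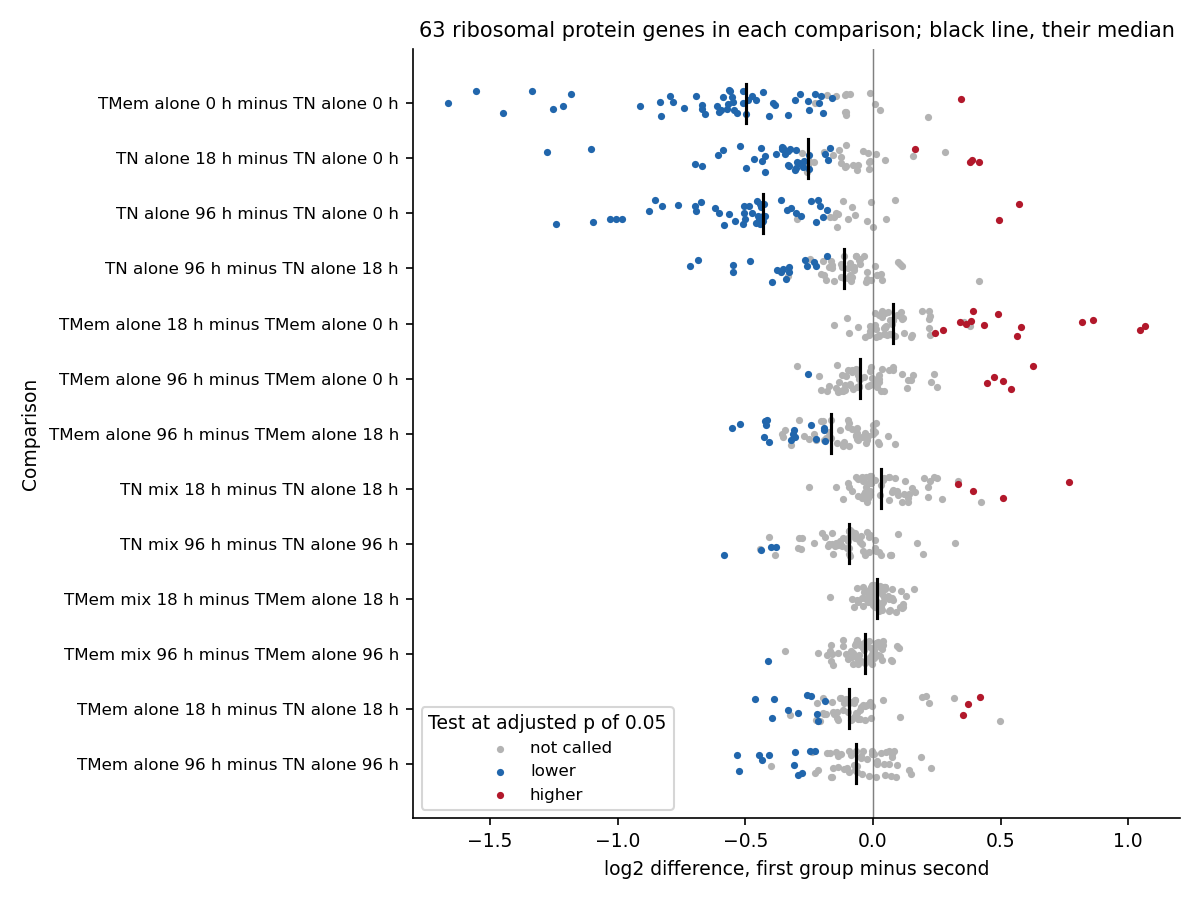
Log2 difference of each of the 63 genes (points) in the 13 comparisons of 2 groups, first group minus second, coloured by the limma call at an adjusted p of 0.05 over all genes; black lines are medians over the 63 genes. The medians lie at -0.50, -0.25 and -0.43 in the 3 comparisons that use TN alone 0 h and between -0.16 and 0.08 in the others.

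After stimulation fewer members differed between memory and naive cells. At 18 h, 10 genes were lower and 3 higher in TMem alone than in TN alone, where 13.5% and 15.4% of all genes were (28.9% in all), with a median of -0.09. The share of members lower at 18 h, 15.9%, was thus near that of all genes, and the share higher, 4.76%, was below it. At 96 h, 11 were lower and 0 higher (limma; 1 was higher at an unadjusted p under 0.05), where 8.02% and 14.1% of all genes were (22.2% in all), with a median of -0.07. The members called at both times, Rps10, Rps14, Rps21 and Rps29, were lower in TMem each time and belong to the small subunit. At 18 h the call for Rps21 was lost under 9 of 13 alternative settings, that for Rps29 under 2 and that for Rps14 under 1. At 96 h those for Rps21 and Rps29 were lost with the mean of all rows. Rps14 read 10.89, 10.89 and 10.82 in TMem alone 96 h, against 11.40, 11.48 and 11.32 in TN alone 96 h (difference -0.53, SE 0.12, limma adjusted p = 0.00138). Rps10, which lies near the mRNA entry and is modified in ribosome quality control, read 11.92, 11.99 and 12.00 in TMem alone 96 h, against 12.44, 12.43 and 12.26 in TN alone 96 h (difference -0.41, SE 0.075, limma adjusted p = 1.25e-04). Both sets were apart on every array. The counts changed with single arrays, to 5 or 6 at 18 h without replicate 1 of TMem alone or replicate 3 of TN alone. At 96 h they were 5 without replicate 2 of TMem alone and 7, 7 and 6 without replicates 1, 2 and 3 of TN alone. At 96 h mast and basophil markers averaged 6.00 to 6.11 in TMem alone and 6.94 to 7.30 in TN alone, all 3 lower in TMem. Of 3 NK markers 2 were lower and 1 higher, and of 5 myeloid markers 1 was lower and 1 higher. Of 4 B cell markers 2 were lower and of 2 CD4 T cell markers 1. The part of these markers was not tested.

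Mixing the cells changed few members. At 18 h, with TN mix set against TN alone, 4 were higher and 0 lower (limma; 1 was lower at an unadjusted p under 0.05), where 6.30% and 8.15% of all genes were (14.4% in all). The share of members that were higher was that of all genes. They were Rpl14 (difference 0.77), Rps19bp1 (0.51), Rpl12 (0.39) and Rpl7l1 (0.34). Rpl12 read 10.26, 10.09 and 10.22 in TN mix 18 h, against 9.72, 9.75 and 9.92 in TN alone 18 h, with no overlap (SE 0.092, limma adjusted p = 0.00342). Rpl14 read 10.17, 9.74 and 9.69 in TN mix 18 h, against 9.14, 8.74 and 9.43 in TN alone 18 h, also with no overlap (SE 0.23, limma adjusted p = 0.0201). Both means lay nearer to those of unstimulated naive cells than the values of TN alone 18 h did. Without replicate 2 of TN alone 18 h or replicate 1 of TN mix 18 h, 2 genes were called, and the calls for Rpl14 and Rpl7l1 were lost.

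The members called for mixing of naive cells at 96 h were lower. In TN mix against TN alone, 4 members were lower and 0 higher (limma; 0 also at an unadjusted p under 0.05), where 3.62% of all genes were lower and 10.6% called in all, and the median was -0.09 against 0.05 over all genes. The 4 were Rps14 (difference -0.58), Rps10 (-0.44), Rpl12 (-0.40) and Rps29 (-0.38). Rps10 read 11.94, 11.92 and 11.96 in TN mix 96 h, against 12.44, 12.43 and 12.26 in TN alone 96 h, the range of TMem alone 96 h (SE 0.075, limma adjusted p = 1.43e-04). With the replicate number as a block, 3 members were lower and Rps29 was not called, a call lost under 9 of 13 alternative settings, and with array weights 13 were lower and 1 higher. Y-linked Eif2s3y read 7.34 to 7.89 in TN mix 96 h and 4.13 to 4.2 in TN alone 96 h, mast and basophil markers 5.81 to 6.21 and 6.94 to 7.30, and B cell markers 6.25 to 6.41 and 7.12 to 7.18. All 3 mast and basophil genes and 2 of 4 B cell genes were lower in TN mix. So were 2 of 3 NK, 1 of 5 myeloid and 1 of 2 CD4 T cell genes. The part of all these genes in the result was not tested.

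Memory cells showed little change on mixing. At 18 h, 0 of the 63 genes were called in TMem mix against TMem alone by limma, 0 also at an unadjusted p under 0.05 and 0 with array weights, where 0% of all genes were higher and 0.0301% lower. At 96 h, 1 was lower, Rpl12, where 0.150% of all genes were lower and 0.968% higher (1.12% in all). It read 8.82, 8.79 and 8.63 in TMem mix 96 h, against 9.23, 9.1 and 9.15 in TMem alone 96 h (difference -0.41, SE 0.092, limma adjusted p = 0.0154). The call was lost when any of replicates 1 and 3 of TMem alone or replicate 3 of TMem mix was left out, leaving 0 genes. The effect of mixing at 96 h differed between TN and TMem for Rps10 alone among the 63 (-0.39, SE 0.11, limma adjusted p = 0.0339), where 1.62% of all genes were lower and 1.92% higher (3.54% in all). That call was lost in 11 of 12 fits that left out an array.

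The stalk proteins, which recruit elongation factors to the ribosome, did not move together. Rplp1 followed most core genes: it averaged 13.03 ± 0.076 in TMem alone and 13.54 ± 0.051 in TN alone at 0 h (SD, n = 3 each), a difference of -0.51 (limma adjusted p = 3.13e-07), and was lower in TN alone at 18 h (-0.33) and 96 h (-0.49) than at 0 h. Rplp2 was instead higher at 18 h than at 0 h in both cell types, by 0.39 in TMem alone (limma adjusted p = 7.32e-04) and by 0.38 in TN alone (limma adjusted p = 0.00108). Its TN alone arrays read 9.67, 9.68 and 9.93 at 0 h, 10.18, 10.11 and 10.13 at 18 h, and 9.59, 9.56 and 9.63 at 96 h, so the 18 h arrays were above all others. Rplp0 was called in none of the 13 comparisons of 2 groups. Rpsa, a small subunit protein also known as the laminin receptor precursor, had differences of -0.23 in TMem against TN at 0 h and -0.45 in TN alone at 96 h against 0 h (limma adjusted p = 0.0144 and 1.10e-05), and the first was lost under 4 of 13 alternative settings.

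Among the relatives of subunit genes, Rps19bp1 and Rpl7l1 rose in TMem alone at 18 h. Rps19bp1 encodes a nucleolar protein that binds Rps19. It read 10.61, 10.81 and 10.72 in TMem alone 18 h, against 9.77, 9.62 and 9.55 in TMem alone 0 h (difference 1.07, SE 0.12, limma adjusted p = 2.01e-08). Its partner Rps19 had a difference of 0.12 in that comparison, which did not pass the test (limma adjusted p = 0.452). Rpl7l1, a paralog of Rpl7 found in large subunit precursors, read 10.80, 10.95 and 10.95 in TMem alone 18 h, against 10.10, 9.90 and 10.12 in TMem alone 0 h (difference 0.86, SE 0.098, limma adjusted p = 3.51e-08). In TN alone at 18 h Rpl7l1 rose by 0.41, a call lost when only the groups compared entered the fit. Rpl7 fell there by 0.31. Both Rps19bp1 and Rpl7l1 were also raised at 18 h by mixing in TN (0.51 and 0.34). Thus at 18 h against 0 h the paralog and its parent went in opposite directions in naive cells and in the same direction in memory cells. This did not hold later. In TMem alone Rpl7l1 averaged 10.58 at 96 h and 10.04 at 0 h, while Rpl7 averaged 11.77 and 11.91. In TN alone at 96 h against 18 h the differences were -0.33 for Rpl7l1 and -0.195 for Rpl7, the second not called.

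Rps27l, a paralog of Rps27 known as a p53 target, read 11.03, 11.14 and 11.14 in TN alone 96 h, against 11.14, 10.14 and 10.32 in TN alone 0 h. The groups overlapped through the first naive array, and the call (difference 0.57, limma adjusted p = 0.00403) was lost when replicate 2 of TN alone 0 h was left out. In TMem alone it was 0.45 higher at 96 h than at 0 h (limma adjusted p = 0.0362), a call lost under 7 of 13 alternative settings. Rpl10l, best known from testis, was lower in TMem alone than in TN alone at 0 h (-0.55), but its first naive array read 7.54 against 6.62 and 6.70 for the others. The call was lost without that array, and also when only the groups compared entered the fit. Rpl32l was also lower in that comparison (-0.25), a call lost under 2 of 13 alternative settings. Rpl3l, a paralog of heart and skeletal muscle, and Rpl39l, another testis paralog, had rows near background (5.47 to 6.27 and 4.53 to 5.21 on all arrays), and neither these nor Rps4l was called between TMem and TN at 0 h.

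**Figure D4:**
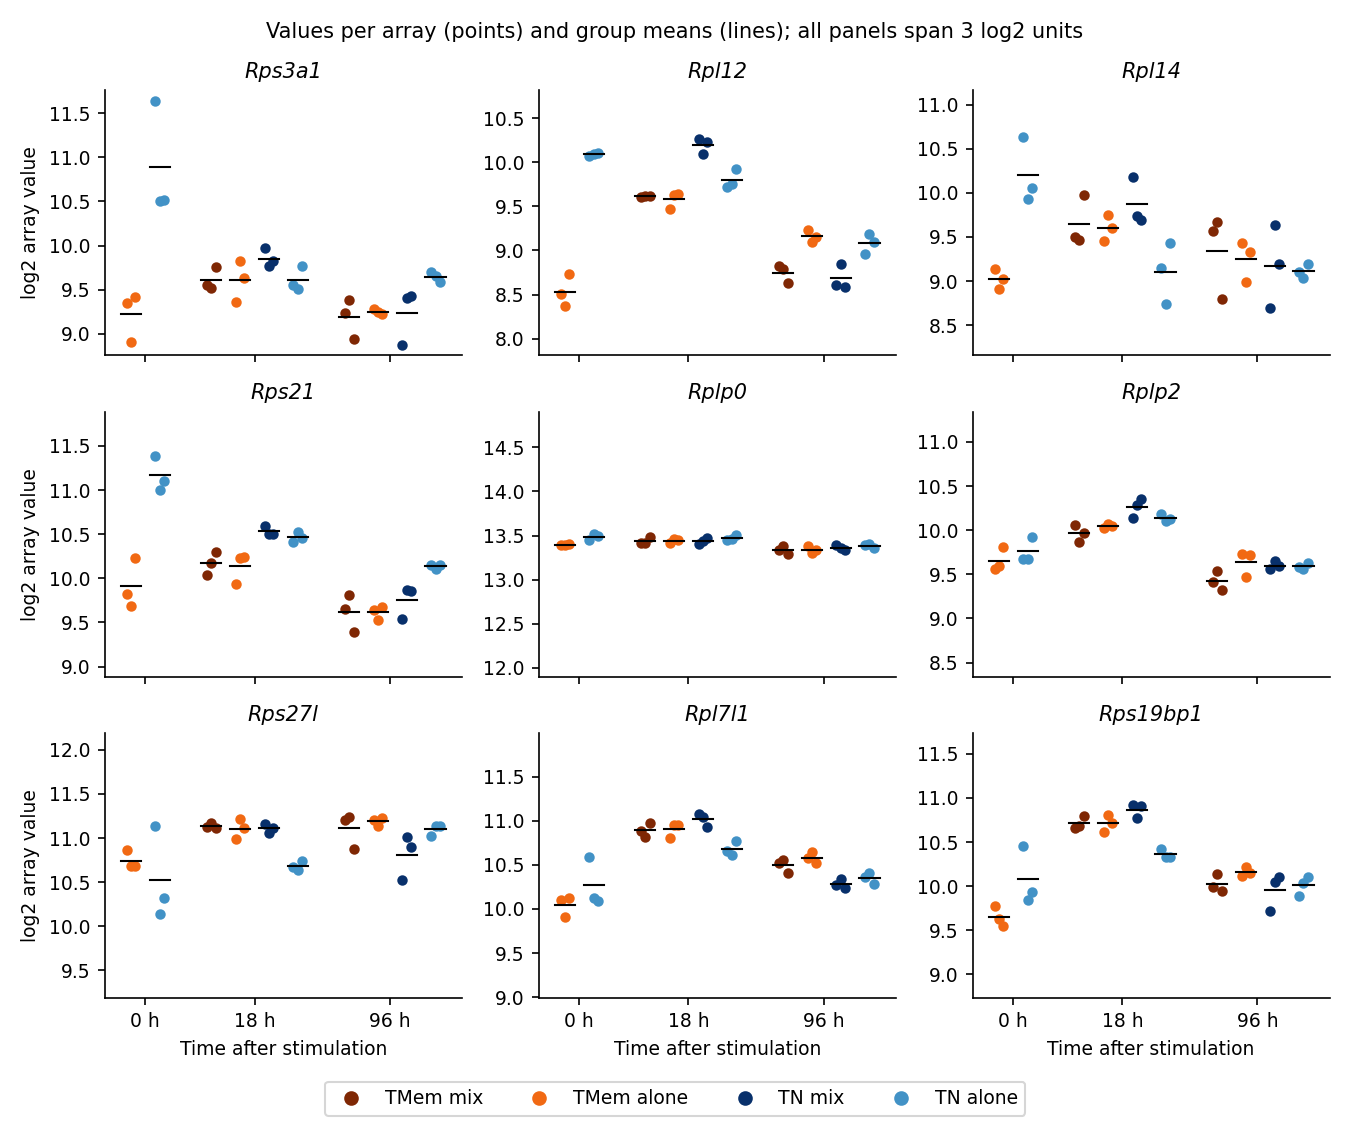
Log2 array values of 9 genes on each array (points) with group means (lines), at 0 h, 18 h and 96 h, coloured by cell type and culture; every panel spans 3 log2 units. Rps3a1, Rpl12, Rpl14 and Rps21 have their highest group mean in TN alone 0 h, except Rpl12 in TN mix 18 h, Rplp0 is flat, and Rplp2, Rpl7l1 and Rps19bp1 are highest at 18 h.

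Genes that build ribosomes were mostly higher at 18 h in both cell types. Of 24 genes for ribosome assembly and RNA polymerase I, 24 were higher in TMem alone at 18 h against 0 h (limma, median 1.31). In TN alone 21 were higher (median 0.86). Over all genes 18.0% and 17.1% were higher in these comparisons. Rrp9, of the U3 particle that processes ribosomal RNA, rose by 2.00 in TMem alone (limma adjusted p = 1.57e-15). Polr1b, a core subunit of RNA polymerase I, rose by 2.21 in TN alone (limma adjusted p = 2.49e-14), where Rps3a1 and Rpl14 fell. With TN mix set against TN alone at 18 h, 16 of the 24 were higher (median 0.37), among them Wdr12 (0.72) and Nop16 (0.49). Of all genes 6.30% were higher there. Later, at 96 h against 18 h, 22 were lower in TMem alone and 14 in TN alone, where 9.87% and 13.1% of all genes were. Between TMem and TN at 0 h the list was split, with 4 of 24 higher and 6 lower, near the 18.4% and 17.5% of all genes.

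Other translation genes whose mRNAs are of the TOP kind were mixed. Of 22 listed, 18 were measured: 9 were lower and 3 higher in TMem alone than in TN alone at 0 h (median -0.17), with Eif3e at -0.94, Eif3k at -0.69 and Naca at -0.67. Over all genes 17.5% were lower and 18.4% higher in that comparison. In TN alone at 18 h against 0 h, 6 were lower and 6 higher, where 16.7% and 17.1% of all genes were. In TMem alone 8 were higher and 1 lower, where 18.0% and 17.3% of all genes were. Npm1, a nucleolar chaperone, rose in both, by 0.99 in TMem alone and 0.85 in TN alone. Of 13 measured control genes, 7 were higher in TMem alone than in TN alone at 0 h, where 18.4% of all genes were. They were led by Larp1 at 2.30 (limma adjusted p = 1.11e-15), Rptor, the mTORC1 scaffold, at 1.05, and Myc, a factor that drives ribosome production, at 0.92. In TN alone at 18 h Larp1 rose by 2.67 and Myc by 2.16 above 0 h. In TMem alone at 18 h Myc rose by 1.35, and Mxd4, which opposes Myc, fell by 1.16.

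Rows of 1 gene were not called in opposite directions, but the choice of row ended some calls. Fitted row by row, 196 of the 219 rows were lower and 1 higher in TMem alone than in TN alone at 0 h, where 18.0% and 18.4% of all rows were. In TN alone at 18 h against 0 h, 151 rows were lower and 4 higher, where 16.9% and 17.4% of all rows were. In TMem alone 40 rows were higher and 0 lower (limma), where 18.0% and 16.9% of all rows were, so the higher share of member rows was that of all rows. Of the 39 members with several rows, 0 had rows called in both directions in any of the 15 contrasts, and 33 had all their rows lower in TMem alone at 0 h. With the mean of all rows, the calls for Rps21 and Rps29 between TMem alone and TN alone at 96 h were lost (limma adjusted p = 0.165 and 0.101). Ribosomal protein genes have many processed pseudogenes, so levels on such rows are uncertain. Of the rows, 19 were identical to another, and rows of 1 gene are not independent.

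The size of a difference went with the level of the row in some comparisons. Split at the median level of 12.29, the 27 brighter core genes had a median difference of -0.30 in TMem alone minus TN alone at 0 h, and the 27 dimmer ones -0.69. In the contrast of 18 h responses, TMem alone minus TN alone, the medians were 0.19 and 0.58. Across the 54 core genes, which share arrays and are not independent, level and difference had a Pearson correlation of 0.72 in the first comparison and -0.75 in the second, which share their 0 h arrays. It was 0.012 for TMem alone minus TN alone at 18 h and 0.086 at 96 h. In TMem alone at 96 h against 0 h the brighter genes had the larger median difference, -0.07 against -0.01 for the dimmer ones. The core genes with a TOP start at the listed position (9) had a median of -0.50 in TMem alone minus TN alone at 0 h, and those without (34) -0.55. In TN alone at 18 h against 0 h the medians were -0.13 with the start, where 4 of 9 genes were lower, and -0.29 without it, where 23 of 34 were. In the contrast of 18 h responses they were 0.28 (4 of 9 higher) and 0.42 (23 of 34 higher). These differences between genes with and without the start were not tested. The split follows the listed starts, which can lie some bases from the true ones. Rpl7a and Rpl27a, for example, counted as without it because a T stood at the listed start, inside a pyrimidine run. The split therefore does not sort genes by whether their mRNAs have a TOP start.

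**Figure D5:**
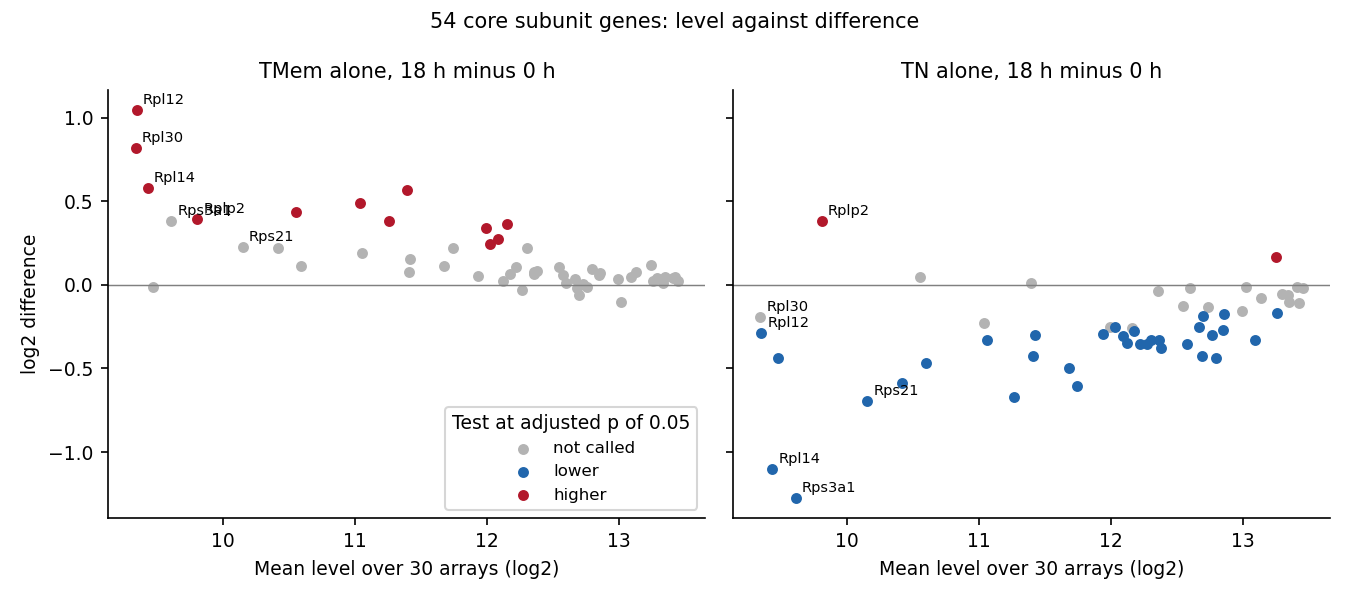
Log2 difference at 18 h minus 0 h against the mean level over 30 arrays for the 54 core genes, in TMem alone (left) and TN alone (right), coloured by the limma call at an adjusted p of 0.05. Rows above a level of 13 lie between -0.33 and 0.16 in TN alone and between -0.10 and 0.12 in TMem alone, while Rpl12 rises in TMem alone by 1.05 and Rps3a1 has -1.28 in TN alone.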

How the data were processed

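The authors deposited log2 values per probe set, and the submitters' processing notes name RMA and Partek, without version or role. They were used as deposited. Rows naming 1 gene were kept (21789 of 35556; 1621 named several, 12146 none), and the row with the highest mean stood for each of 999 genes with several rows. Names and starts came from RefSeq tables (GRCm38.p6), to which 21698 rows matched and 91 did not.

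A mean per group was fitted over 30 arrays with limma 3.58.1 in R 4.3.3 (lmFit and eBayes, 20 residual degrees of freedom). The 13 comparisons and 2 differences between effects were 2-sided, with Benjamini-Hochberg adjustment over 19938 genes. SE are moderated. The submitters describe biological repeats, and 3 arrays per group limit the precision; an exact permutation test of 3 against 3 cannot go below p = 0.1. The code was tested on simulated data for TN alone at 18 h against 0 h. It recovered 5.97% of differences of 0.25, 52.2% of those of 0.5 and 95.5% of those of 1, with 3.77% of calls false. A gene not called may therefore still differ. Few genes were changed in the simulation (66 or 67 of 19938 at each size), so these rates need not hold for the real data.

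The members, lists and tests were chosen with earlier results of these data known. Named members were up to 5 rises and 5 falls per comparison, the stalk genes, Rpsa, all relatives with their parent subunit, and the 3 core genes that varied most and least over groups; named genes of other lists were up to 4 per comparison with the smallest adjusted p. Rps10 and the X-linked genes at 0 h, and Rps29 there, were named after their values were seen. Of 95 list genes 83 were measured. Same-numbered arrays deviated together, with the correlation of every pair over 0.1, in 1 of 13 comparisons. This was TN mix against TN alone at 96 h (correlations 0.137 to 0.489 for 3 pairs), so the replicate block is given there.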

Additional observations from a re-analysis of the deposited data

Results flagged for a closer look

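The response to 18 h of stimulation differed between the cell types by a test of the difference itself (limma, TMem alone minus TN alone): 38 members were higher and 1 lower, where 14.2% and 14.7% of all genes were. Among core genes the differences were 1.68 for Rpl14, 1.66 for Rps3a1, 1.34 for Rpl12, 1.05 for Rps14, 1.01 for Rpl30 and 0.37 for Rplp1. Among relatives they were 0.78 for Rps19bp1, 0.74 for Rpl10l, 0.45 for Rpl7l1 and -0.54 for Rps23rg1. The Rplp1 difference was not called after quantile normalization, that of Rpl10l not when only the 4 groups concerned entered the fit, and that of Rpl7l1 not under 4 of 19 alternative settings, those groups alone and array weights among them.

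The effect of mixing at 96 h differed between TN and TMem for 1 member, Rps10, at -0.39. This is 1.59% of members lower, where 1.62% of all genes were lower and 1.92% higher, so the share was that of all genes. The call was lost under 11 of 19 alternative settings.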

How the results depend on the processing

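Of 96 named member and comparison pairs that were called, 57 kept their call under every alternative, 39 lost it under at least 1 and 0 reversed. The replicate block changed no count by over 1.5 times: it gave 50, 36 and 48 called members for TMem against TN at 0 h and for TN alone at 18 h and 96 h against 0 h, and 3 for mixing of TN at 96 h. Over all pairs of groups the mean correlation was -0.0068 for arrays of the same replicate number and 0.0036 for others. These means do not show that pairing was absent in every other comparison. In TMem alone at 18 h against 0 h, for example, 2 same-numbered pairs had correlations over 0.1 (-0.0776 to 0.3265 over its pairs). Centring each array moved the median of all genes by -0.10 in TMem against TN at 0 h, and there gave members a median of -0.60; it gave 26 calls and a median of -0.26 for TMem alone at 96 h against 18 h, 9 calls for TN mix at 18 h and 0 for TMem mix at 96 h. Quantile normalization gave medians of -0.37 for TMem against TN at 0 h, -0.31 for TN alone at 96 h against 0 h and 0.22 for the difference of 18 h responses. It gave 21 calls for TMem alone at 96 h against 0 h, 10 for TN mix at 96 h, 23 for TMem against TN at 18 h (22 lower, 1 higher), 23 at 96 h and 2 for the difference of mixing effects. Array weights gave 27 calls for TN alone and 30 for TMem alone at 96 h against 18 h, 12 and 14 for TN mix at 18 h and 96 h, 2 for TMem mix at 96 h, 27 and 26 for TMem against TN at 18 h and 96 h, and 2 for the difference of mixing effects. Leaving out low genes, with 61 members kept, gave 7 for TN mix at 96 h. The mean of all rows gave 2 for the difference of mixing effects. Fitting only the groups compared gave 7 for TN mix at 18 h, 18 for TMem against TN at 96 h and 2 for the difference of mixing effects. Leaving out 1 array gave 7 to 18 calls for TMem alone at 18 h against 0 h, 7 to 17 at 96 h against 18 h, 2 to 4 for TN mix at 18 h, 0 to 1 for TMem mix at 96 h, 5 to 10 and 5 to 9 for TMem against TN at 18 h and 96 h, 0 to 1 for the difference of mixing effects, and a median of 0.30 to 0.43 for the difference of 18 h responses. The causes were not tested. Counts of calls in this section take both directions together unless a direction is stated. The share of all genes called under each alternative setting is not given, here or in the results above. A member count from such a setting therefore does not say whether members were called more often than all genes. Detection calls were not used here, so signal over background is unknown.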
